A study of Rattus norvegicus with 2 samples.

Results

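The genes described here are 8 genes of the sterol regulatory element-binding protein (SREBP) system in rat glioma cells with and without tafazzin. They are the factors Srebf1 and Srebf2, their escort Scap, the anchors Insig1 and Insig2, the proteases Mbtps1 and Mbtps2, and the sterol carrier Stard4. They were chosen by gene symbol, and each was read by 1 of the 23188 transcript clusters of the array, a cluster being the set of probes that report on a gene. The tested cells, C6 TAZ, are C6 cells in which tafazzin (Taz), the acyltransferase that remodels cardiolipin, had been knocked out with the CRISPR-Cas9 system, and the wild-type cells are C6, an established rat glioma line. Both were grown in DMEM with 3% fetal bovine serum and antibiotics. Whether the C6 TAZ cells are 1 clone is not given here. For either genotype, RNA of 3 cultures went as a pool onto a single Clariom S rat array from Affymetrix. The differences are therefore without a replicate check, their precision is limited by the number of arrays, and neither p-values nor SDs are given.

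SREBPs are made as membrane proteins of the endoplasmic reticulum, where Scap binds them. When the membrane is rich in cholesterol, Scap is held back by Insig proteins. When it is poor in cholesterol, the complex leaves for the Golgi apparatus in COPII vesicles, where the site-1 protease (Mbtps1) and then the site-2 protease (Mbtps2) release the factor. The released factor enters the nucleus and switches on genes of lipid synthesis and uptake. SREBP-2 (Srebf2) acts mainly on genes of cholesterol supply and the SREBP-1c form of Srebf1 mainly on genes of fatty acid synthesis, and Insig1, Srebf2 and Stard4 are themselves SREBP targets. In the brain, cholesterol is largely made on the spot by glial cells.

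Parts of the regions before the starts of Srebf2 and Insig1 are shown because both genes were dimmer in C6 TAZ, and the miRNA rno-miR-33-5p is shown because its hairpin lies inside Srebf2. The sequences are from RefSeq on the GRCr8 build. The Insig1 stretch is chr4:8057813-8058019 on the minus strand, the 207 bases that end just before the annotated gene. Its capitals mark a match to CACNCCAC on the opposite strand, from base -231 to -224 relative to the start, and the E-box CACGTG, from -79 to -74. The Srebf2 stretch is the 30 bases at chr7:115543140-115543169 on the plus strand, from -167 to -138, with ATCACCCCA in capitals. In rno-miR-33-5p, chr7:115593957-115593977 on the plus strand, the capitals mark the seed.
Insig1: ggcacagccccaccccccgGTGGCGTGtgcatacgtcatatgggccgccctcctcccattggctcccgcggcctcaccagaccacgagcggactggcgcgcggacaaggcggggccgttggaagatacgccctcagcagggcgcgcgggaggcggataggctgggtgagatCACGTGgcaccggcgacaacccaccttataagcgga
Srebf2: atgacgcgccATCACCCCAtgagccgcttc
rno-miR-33-5p: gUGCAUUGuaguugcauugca

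For 7 of the 8 members the RefSeq table held a window of 250 bases before a start, with 8 windows because Srebf1 has both an outer and an inner start. The member without a window was Stard4, which had the largest difference, so its promoter was not searched. The fuller sterol element TCACNCCAC was found on either strand in none of the 7 genes, and in 0.974% of all 33465 such windows. Its shorter form CACNCCAC, which every match of the fuller one also contains, was found in Insig1 alone, against 4.89% of all windows. Of the cholesterol synthesis enzymes listed below, 16 had a window, of which 0 held the fuller form and 2 the shorter one. For the fatty acid synthesis list these were 0 and 2 of 10. Absence of these letters from a window thus does not set the members apart from those enzymes. ATCACCCCA, a string chosen after the Srebf2 sequence had been read, was found in Srebf2 alone, against 0.212% of all windows. The E-box CACGTG, a palindrome, stood before Insig1 and Scap (5.59% of all windows). CCAAT, the letters read by NF-Y, stood before 4 of the 7 genes, Srebf1, Srebf2, Insig1 and Insig2 (34.0%), and GGGCGG, the letters read by Sp1, before 5 of the 7 (30.5%). The start used for Srebf2 lies 533 bases inside the annotated gene and that for Insig2 lies 12839 bases inside it, so the Insig2 window need not be its main promoter. A match of letters is a description and no site, and the array measured no binding.

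**Figure D1:**
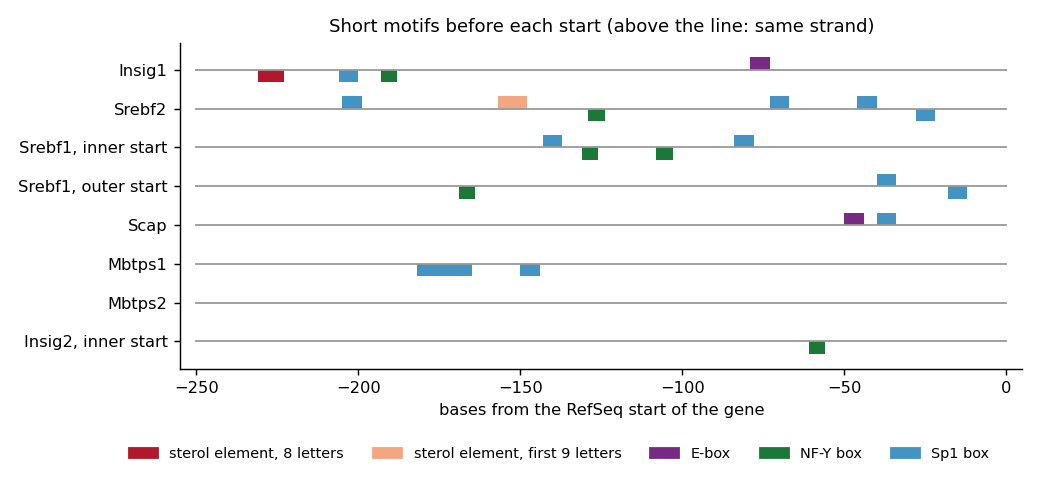
Position of short motifs in the 250 bases before each RefSeq start, in bases from the start, with matches on the gene's own strand drawn above the line and those on the opposite strand below it. Insig1 holds 1 match each of the shorter sterol element (CACNCCAC) and the E-box, Srebf2 holds the string ATCACCCCA at -157 to -149, and Mbtps2 holds none of the motifs. Stard4 had no window and is not drawn.

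The direction of each difference rests on which deposited names are right. The workbook used here names its columns C6 TAZ and C6, and signals printed by the study stand under those names. The deposited per-sample table has them the other way round: exchanging its columns makes 100% of clusters equal to the workbook, against 1.16% without the exchange. Under that table's names each difference below would have the opposite sign. Taz itself gave 9.84 on the log2 scale in C6 TAZ and 10.34 in C6 (1.41-fold lower), and since the position of its probes against the deleted part is not given, this checks nothing about the genotype. Over all clusters the median log2 signal was 6.40 in C6 TAZ and 6.39 in C6. The 8 glial markers were Vim (18.77 in C6 TAZ and 18.72 in C6), Nes (13.08 and 13.22), Sox2 (13.63 and 13.24), Olig2 (7.68 and 8.52), Aldoc (13.16 and 13.57), S100b (10.40 and 9.82), Gfap (6.38 and 5.73) and Slc1a3 (4.67 and 3.91). None of 30 marker genes of glia, neurons, microglia, endothelium and fibroblasts differed by 2-fold, against 4.44% of all clusters. The endothelial ones lay between 4.08 and 5.69 in C6 TAZ and between 4.25 and 6.14 in C6. Other non-glial lists held brighter genes. The brightest were Snap25 for neurons (9.42 in C6 TAZ and 9.65 in C6), C1qa for microglia (7.40 and 7.59) and Pdgfra for fibroblasts (14.61 and 14.76). Pdgfra stood alone in its list, whose other genes lay between Lum (4.27 in C6 TAZ and 3.98 in C6) and Col1a1 (6.23 and 6.08). The part of cell types in the results was not tested. In RNA of whole cultures, fewer cells of a kind and less RNA per cell cannot be told apart.

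Stard4, Insig1 and Srebf2 were dimmer in C6 TAZ, by 5.06-fold, 2.45-fold and 2.10-fold, while Insig2 and Srebf1 were 1.61-fold and 1.58-fold higher. Scap and both proteases differed by less than 1.5-fold. Thus 3 of the 8 members were lower by 2-fold or more, against 2.1% of all 23188 clusters, and none was higher by 2-fold or more, against 2.34%. Past 1.5-fold, the threshold in the study's methods, there were 5 of the 8, against 18.9% of all clusters, with 3 lower (9.05% of all clusters) and 2 higher (9.87%). The median log2 difference (C6 TAZ minus C6) was -0.14 over the members and 0.00 over all clusters, so that the median does not show the members that differed. Because the members were picked with earlier results of these data known, these counts describe them and are no evidence apart from the values themselves.

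**Figure D2:**
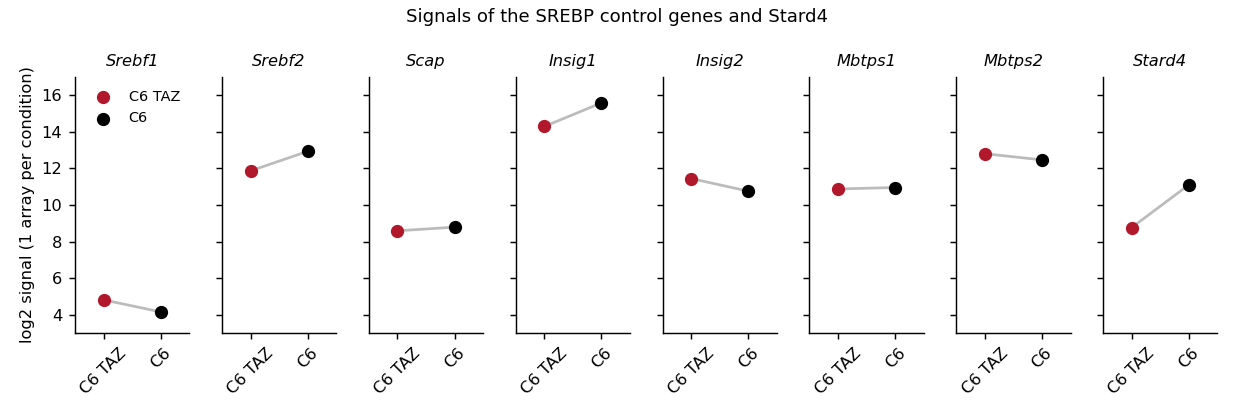
Log2 signal of each member in the C6 TAZ array (red, left) and the C6 array (black, right), 1 array per condition, joined by a grey line. Stard4 (8.77 and 11.11), Insig1 (14.30 and 15.59) and Srebf2 (11.87 and 12.94) were lower in C6 TAZ, and levels of different genes cannot be compared on this scale because each is read by other probes.

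Of the factors, Srebf2 gave 11.87 on the log2 scale in C6 TAZ and 12.94 in C6, a log2 difference of -1.07. Srebf2 encodes SREBP-2, and 361 of the 23188 clusters had a lower difference than it. The miRNA printed above sits in an intron of this gene and is known to act on transcripts of sterol export. The abundance of miR-33 was not analysed here. Of 9 genes known as its targets in mammals, a list written after the data had been opened, 5 lay above 0 and 4 below 0. Their median difference was 0.32. Irs2 was higher by 2-fold or more (10.58 in C6 TAZ and 9.56 in C6), against 2.34% of all clusters. None was lower by 2-fold, against 2.1%. Among the 9, the lysosomal cholesterol exporter Npc1 had 11.43 in C6 TAZ and 10.68 in C6, and the efflux transporter Abca1 had 6.40 and 5.62. The efflux transporter Abcg1 went the other way, with 9.56 in C6 TAZ and 9.96 in C6. A part of miR-33 in these values was not tested.

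Srebf1 gave 4.81 on the log2 scale in C6 TAZ and 4.15 in C6, a difference of 0.66. Both values lie below the array medians, at percentile 28.5 of all clusters in C6 TAZ and 13.7 in C6. Of the 10840 clusters with a mean log2 signal under 6, 17.5% differed by 1.5-fold or more in either direction, so a difference of this size was common among dim clusters. The gene gives the forms SREBP-1a and SREBP-1c from different starts, and its single cluster gives no separate value for them. The log2 difference of Srebf1 lay 1.73 above that of Srebf2, a value that rests on the dim Srebf1 signal.

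Scap, the escort that senses cholesterol, gave 8.59 on the log2 scale in C6 TAZ and 8.79 in C6, a difference of -0.20. As many as 63.6% of all clusters differed by at least this much in one direction or the other. The escort thus did not stand apart from the bulk of the array.

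The paralogous anchors went opposite ways. Insig1, which keeps Scap in the endoplasmic reticulum and helps to degrade the HMG-CoA reductase, gave 14.30 on the log2 scale in C6 TAZ and 15.59 in C6. Its difference was -1.29, with 170 clusters further down. Insig2, which also holds Scap back, had 11.45 in C6 TAZ and 10.76 in C6, a difference of 0.69, with 1590 clusters further up. The difference of Insig2 lay 1.98 above that of Insig1 within the same pair of arrays. Both were bright, with a mean log2 signal above 10, where 8.52% of 6278 clusters passed 1.5-fold upward and 2.1% passed 2-fold downward.

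Mbtps1, the site-1 protease that makes the first cut in the Golgi lumen, gave 10.88 on the log2 scale in C6 TAZ and 10.96 in C6. Its difference of -0.08 was reached or passed in size by 85.1% of all clusters. Mbtps2, the metalloprotease that makes the second cut within the membrane, had 12.81 in C6 TAZ and 12.47 in C6, a difference of 0.34, and 42.9% of clusters differed by at least as much. Both proteases also cut other factors of the endoplasmic reticulum and Golgi, which are given below.

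Stard4, a soluble START domain protein that moves cholesterol between membranes, had the largest difference of the members. Its log2 signal was 8.77 in the C6 TAZ array and 11.11 in the C6 array, a difference of -2.34. Only 11 of the 23188 clusters had a lower difference. Stard4 was the single member past 4-fold, against 0.134% of all clusters lower by 4-fold or more. At a mean log2 signal of 6 to 10, where Stard4 lies, 2.8% of 6070 clusters were lower by 2-fold or more.

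**Figure D3:**
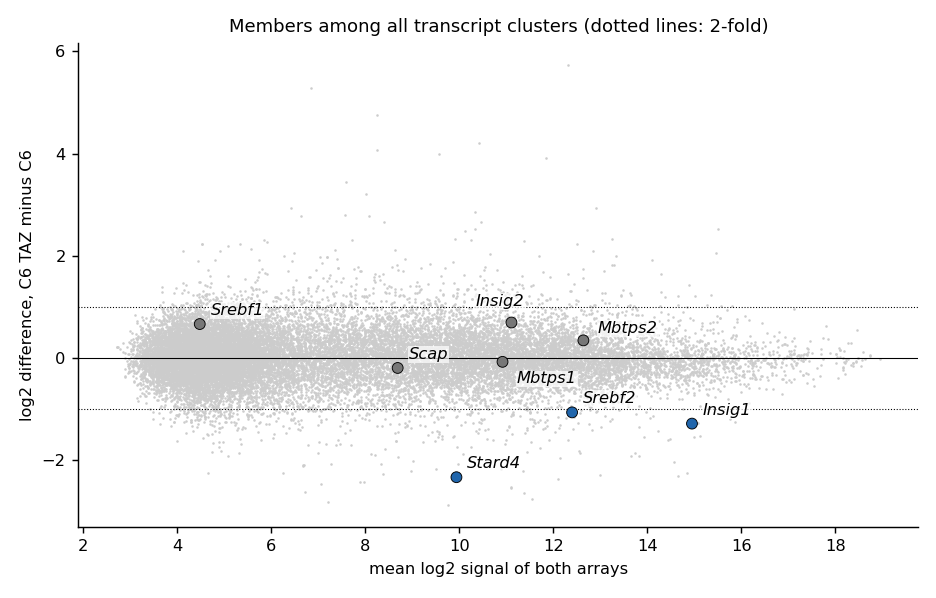
Log2 difference (C6 TAZ minus C6) against the mean log2 signal of both arrays for all 23188 clusters (light grey), with the members as large points, blue where lower by 2-fold or more and dark grey otherwise. Stard4 (-2.34), Insig1 (-1.29) and Srebf2 (-1.07) lie below the lower dotted line, which marks 2-fold, and Srebf1 lies among the dim clusters.

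The START domain family puts Stard4 beside its relatives, which bind sterols, ceramide or phospholipids. Of 15 genes, Stard4 was lower by 2-fold or more and Stard9, a kinesin-like member, was higher, with 8.05 in C6 TAZ and 7.0 in C6. Over all clusters, 2.1% were lower and 2.34% higher by that fold. Of the 14 genes other than Stard4, 12 had a difference above 0, against 49.3% of all clusters, and their median was 0.27, against 0.00 over all clusters. The close relatives Stard5 (7.89 in C6 TAZ and 7.50 in C6) and Stard6 (9.37 and 9.18) differed by 0.39 and 0.19. Stard13 and Dlc1, both GTPase-activating proteins, had 8.72 and 8.96 in C6 TAZ and 7.79 and 8.26 in C6, and the acyl-CoA thioesterase Acot11 had 7.23 in C6 TAZ and 6.45 in C6. Stard3, a carrier of late endosomes, differed by 0.12 and the ceramide carrier Cert1 by 0.32. The members below 0 besides Stard4 were Stard10 (-0.34) and Pctp (-0.20).

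**Figure D4:**
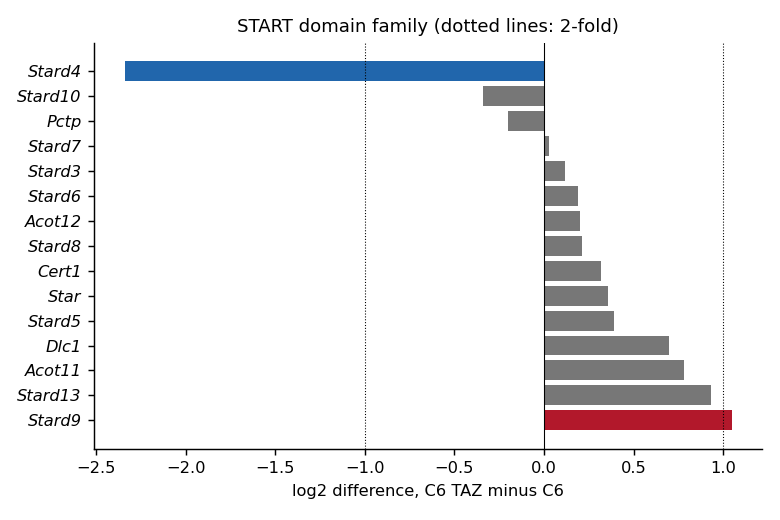
Log2 difference (C6 TAZ minus C6) of the 15 genes of the START domain family, 1 bar per gene, with dotted lines at 2-fold. Stard4 reaches -2.34 and Stard9 1.05, and the other genes lie between -0.34 and 0.93.

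The machinery around the complex was read from lists of known partners. Beside the counts of these and the later lists, 2.1% of all clusters were lower and 2.34% higher by 2-fold or more. Of 12 genes for holding the complex in the endoplasmic reticulum and for sterol-dependent degradation, 1 was lower and 0 were higher past 2-fold, and the median difference was -0.05. The lower one was Tmem97, a sterol-binding protein of the endoplasmic reticulum (11.04 in C6 TAZ and 12.30 in C6). The ubiquitin ligases Rnf145 (12.25 in C6 TAZ and 11.69 in C6) and Rnf139 (11.78 and 11.96) stayed within 1.5-fold, and Pgrmc1, a partner of Insig and Scap, had 13.14 in C6 TAZ and 12.63 in C6.

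Of 13 genes of the COPII coat and the Golgi anchor of the complex, Sec24d was lower by 2-fold or more, with 10.90 in C6 TAZ and 12.10 in C6, and none was higher (median -0.03). Sec24 proteins pick the cargo of the vesicles, and Sec24a, Sec24b and Sec24c differed by 0.24, 0.07 and 0.24. The coat genes Sec31a (12.32 in C6 TAZ and 13.02 in C6) and Sec23a (11.78 and 12.37) were lower by 1.62-fold and 1.51-fold. Sec16a, which marks the exit sites, was 1.51-fold higher (10.38 and 9.79), and Paqr3, the Golgi anchor, differed by 0.06.

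Other factors cut by the same proteases gave no difference of 2-fold among 8 genes (median -0.08). Creb3l1 had 11.55 in C6 TAZ and 12.29 in C6 (-0.74), while Atf6, a sensor of protein folding, had 14.67 and 14.28 (0.39), and Creb3l3 differed by -0.30. Of 13 nuclear partners and regulators of SREBP stability, none passed 2-fold either (median 0.25). The coactivator Ep300 had 10.74 in C6 TAZ and 9.99 in C6 (0.75), the deacetylase Sirt1, read from a cluster that carries another symbol too, differed by 0.56, the NF-Y subunits Nfyb and Nfyc by -0.62 and -0.50, and the third subunit, Nfya, by 0.19. Fbxw7, which marks nuclear SREBPs for degradation, differed by 0.16. The liver X receptors drive transcription of Srebf1 in many tissues, and their arm had no gene past 2-fold among 7 (median 0.17), with Nr1h2 at 13.04 in C6 TAZ and 12.60 in C6 and Nr1h3 at 8.90 and 8.81. The receptor partner Rxra differed by 0.33, and of the efflux transporters Abca1 differed by 0.78 and Abcg1 by -0.40.

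Among 19 genes of sterol uptake and intracellular sterol carriers, Scarb1, the HDL receptor, was lower by 2-fold or more (9.85 in C6 TAZ and 10.93 in C6), while 0 genes passed 2-fold upward and the median was 0.19. Past 1.5-fold, 5 of the 19 genes were higher, against 9.87% of all clusters, and 2 were lower, against 9.05%. The higher ones were the endocytic receptor Lrp1 (13.76 and 12.96), Npc1, the oxysterol-binding proteins Osbpl11 (10.28 and 9.55) and Osbp (14.30 and 13.60), and the lysosomal membrane protein Scarb2 (11.39 and 10.77). The other lower gene was Gramd1c (7.11 and 7.90), which moves sterol to the endoplasmic reticulum and was the mean of 2 clusters.

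Genes of lipid synthesis that SREBPs act on are given for reference to the members. Of 21 enzymes of cholesterol synthesis, 19 were lower by 2-fold or more, against 2.1% of all clusters, and the median was -1.92. The differences of Srebf2 and Insig1 were smaller in size than the median of these enzymes, and that of Stard4 was larger. The enzymes furthest down were Hsd17b7 (-2.77), Mvk (-2.56), Tm7sf2 (-2.53) and Mvd (-2.43). Of 13 genes listed under fatty acid synthesis, 5 were lower (2.1% of all clusters) and 2 higher (2.34%) by 2-fold or more (median -0.71). The lower ones were the acetyl-CoA synthetase Acss2 (-2.88), the desaturase Scd (-2.05), the elongase Elovl6 (-1.34), the synthase Fasn (-1.17) and the carboxylase Acaca (-1.07). The higher ones, neither of them an enzyme of fatty acid synthesis itself, were Gpam (12.66 in C6 TAZ and 11.51 in C6) and the dim Thrsp (5.02 and 4.01). Both lists share the same pair of arrays with the members.

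**Figure D5:**
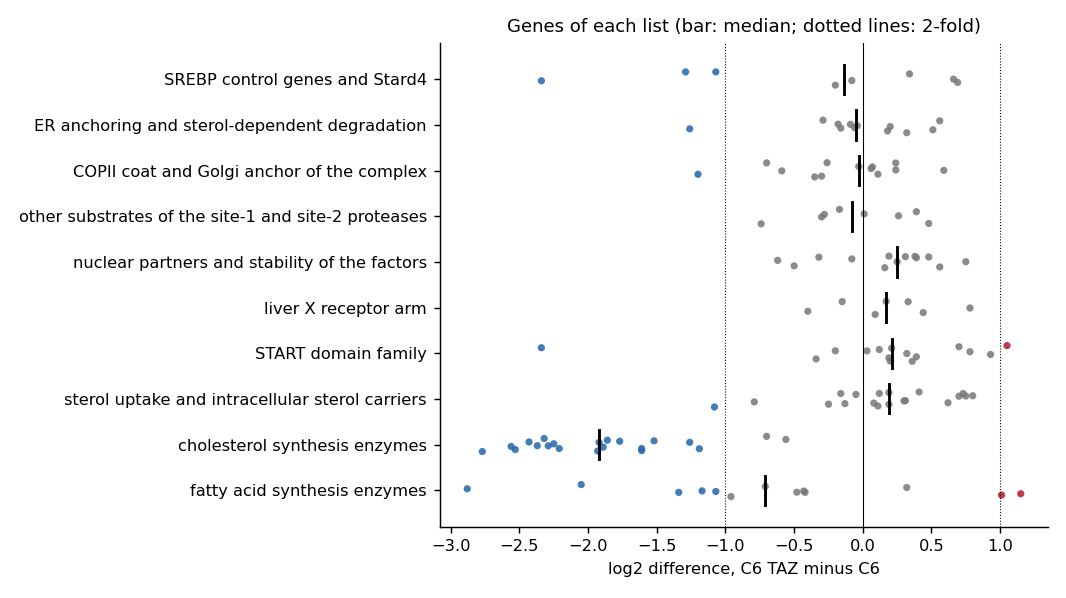
Log2 difference (C6 TAZ minus C6) of each gene, 1 point per gene, for the 8 members and for 9 lists around them, blue where lower and red where higher by 2-fold or more. Black bars mark medians, which are -0.14 for the members, -1.92 for cholesterol synthesis, -0.71 for fatty acid synthesis and between -0.08 and 0.25 for the other lists.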

How the data were processed

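The authors hybridised RNA pooled from 3 cultures per genotype to Clariom S rat arrays and deposited log2 signals per transcript cluster, which the submitters' processing notes link to Affymetrix Expression Console. The array annotation is for rn6. For summarization of probes and normalization of arrays, no method is given in the sources used. The deposited fold changes of the authors and a sheet of selected peptidases were not used. Differences (C6 TAZ minus C6, log2) were computed with no added scaling and rounded to 2 decimals. Clusters carrying a symbol alone were preferred, several were averaged, and 3 of 157 list genes were found through older symbols. The members and lists were chosen with earlier results of these data known. Named are all members, in each list up to 4 genes with the largest difference at a log2 signal of at least 6, the largest in the other direction, and those past 2-fold, and other genes were named after their values were seen. Some genes under this rule are left out of the text. The methods' analysis of variance cannot be run with 1 array per condition. Alternatives were median, quantile, ribosomal protein and lowess scaling, the brightest cluster, a signal filter, other folds and the names of the other table. Motifs were searched in windows of 250 bases of RefSeq. The planned description of the members' proteins was not made. Python 3.11.15, pandas 2.3.3, numpy 2.4.6 and statsmodels 0.14.6 were used, and the scripts were checked on simulated data.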

Additional observations from a re-analysis of the deposited data

How the results depend on the processing

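With the column names of the per-sample table, 3 members passed 2-fold upward and 0 downward, the median of the 8 members was 0.14, Stard4, Insig1 and Srebf2 had differences of 2.34, 1.29 and 1.07, Insig2 lay -1.98 from Insig1 and Srebf1 lay -1.73 from Srebf2. At 1.5-fold, 2 members were higher, and at 4-fold, added after the values were seen, 1 was lower. Over the other 5 settings of scaling and of clusters, the difference of a member moved by at most 0.06, with Srebf2 between -1.08 and -1.05, the member nearest to 2-fold, and none of 45 recomputed medians of the 9 lists moved by 0.1 or more. The setting with the brightest cluster could not move a member, since each of the 8 has 1 cluster. Median and ribosomal protein scaling shift every difference by the same amount, so only quantile and lowess scaling could move members unequally. With members under a log2 signal of 6 left out, which removes Srebf1, the median was -0.20. No paired analysis was possible because each condition has 1 array, and for the same reason no replicate could be left out. How far a signal stood above background was not measured in the files used, which bears most on Srebf1.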

Other observations

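The genes next to the members in the genome were read as well, with 3 named genes on each side of each member in the order of the GRCr8 assembly. Of these 48 neighbours, 1 was higher and 2 were lower by 2-fold or more, against 2.34% and 2.1% of all clusters, and the median difference was -0.14. The higher one was Osgin1, near Mbtps1, at 6.46 in C6 TAZ and 4.94 in C6 (difference 1.52). The lower ones were the centromere gene Cenpm, near Srebf2, at 12.08 in C6 TAZ and 13.10 in C6, and the spermine synthase gene Sms, next to Mbtps2, at 9.84 and 10.84. Around Stard4, none of the 6 neighbours was past 2-fold, and Camk4 and Nrep on either side of it differed by 0.38 and -0.31. All 6 neighbours of Srebf2, a group singled out after its values were seen, had lower values in C6 TAZ. Besides Cenpm these were Ccdc134, at 8.58 in C6 TAZ and 9.42 in C6 (-0.84), Snu13 at 13.17 and 13.43 (-0.26), and the dim Shisa8 (-0.50), Mei1 (-0.33) and Tnfrsf13c (-0.31), each with a log2 signal under 6 in both arrays. Of these 6, Cenpm alone was past 2-fold. Over all clusters 49.3% had a difference above 0, and an effect of the region was not tested.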
